A study of Mus musculus with 2 samples.

Results

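The 10 genes described here belong to the glandular kallikrein cluster of the mouse. They are Klk1, Klk1b5, Klk1b8, Klk1b11, Klk1b16, Klk1b21, Klk1b22, Klk1b24, Klk1b26 and Klk1b27, and they are 10 of the 43026 gene columns in the deposited count tables. The tables hold single cells from testes of mice aged 2 months (the young library) and 24 months (the aged library), captured on the BD Rhapsody system, with 1 library per age. Strain, genotype and the number of animals behind each library are not given in the sources used here. A cell was taken as a Leydig cell when Cyp17a1, Ptgds, Hsd3b6 and Star together made up at least 1% of its counts, which gave 1126 of 2734 analysed young cells (41.2%) and 627 of 5689 analysed aged cells (11.02%). The 10 genes were selected on their counts and on the difference between the ages in Leydig cells, with earlier results of the same libraries known, so both are given as a description. With 1 library per age there is no replicate spread and no test between ages, and every interval is a 95% interval for counting error only.

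Glandular kallikreins are secreted serine proteases of the trypsin fold. Klk1, the tissue kallikrein, cuts kininogens to release kinins, peptides that act on bradykinin receptors and widen vessels. The Klk1b genes arose by duplication in rodents, are best known from the male mouse submandibular gland, where androgens raise many of them, and cut growth factor and hormone precursors there. Leydig cells lie between the seminiferous tubules of the testis, make testosterone under luteinizing hormone, and in adult mice transcribe some Klk1b genes. What these proteases do in the testis is less well known.

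All 10 genes lie on the plus strand of chromosome 7 (GRCm38), between the start of Klk1b8 at 43950664 and the end of Klk1 at 44229618, and all are annotated as protein-coding. Klk1b27 (44052290 to 44056712), Klk1b21 (44102328 to 44106583), Klk1b22 (44112673 to 44116922), Klk1b16 (44136767 to 44141610) and Klk1b24 (44188236 to 44192455) follow each other with no other protein-coding gene between them in GENCODE M21. Klk1b8 (43950664 to 43954941), Klk1b11 (43995877 to 43999875) and Klk1b26 (44012168 to 44016968) lie before this run. Klk1b5 (44215945 to 44220703) and Klk1 (44225360 to 44229618) lie behind it, and the annotation of Klk1 overlaps that of the pseudogene Gm10109. The transcripts are near copies. Klk1b21 was 94.1% identical to Klk1b24 and 93.9% identical to Klk1b27, Klk1 was 94.4% identical to Klk1b5, and Klk1b8 was 93.0% identical to Klk1b26. Between 10.1% (Klk1b16) and 32.1% (Klk1b24) of the stretches of 50 bases in a member's transcript also occurred in another kallikrein transcript. How reads from such stretches were assigned is not given in the sources used here, so the split of counts between close copies is uncertain, while their sum is less so.

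The start regions of the genes are shown because the members lie side by side and differ in level by cell class. One stretch of 40 bases could be placed in the RefSeq promoter window (250 bases before to 50 bases after the annotated start, GRCm38.p6) of each of the 10 members. Capitals mark 1 hexamer that differs between the copies, and in 6 of 10 members it is TGACCT, the reverse complement of the nuclear receptor half-site AGGTCA. All are on the plus strand, at chr7:43950448-43950487 for Klk1b8, chr7:43995664-43995703 for Klk1b11, chr7:44012479-44012518 for Klk1b26, chr7:44052099-44052138 for Klk1b27, chr7:44102124-44102163 for Klk1b21, chr7:44112459-44112498 for Klk1b22, chr7:44137078-44137117 for Klk1b16, chr7:44188033-44188072 for Klk1b24, chr7:44216258-44216297 for Klk1b5 and chr7:44225236-44225275 for Klk1.
Klk1b8: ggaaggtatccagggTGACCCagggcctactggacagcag
Klk1b11: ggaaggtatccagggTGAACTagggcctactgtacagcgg
Klk1b26: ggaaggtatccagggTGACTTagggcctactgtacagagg
Klk1b27: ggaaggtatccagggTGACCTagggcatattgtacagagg
Klk1b21: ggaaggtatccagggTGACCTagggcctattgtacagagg
Klk1b22: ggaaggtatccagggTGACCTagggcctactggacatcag
Klk1b16: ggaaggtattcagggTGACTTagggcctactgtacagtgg
Klk1b24: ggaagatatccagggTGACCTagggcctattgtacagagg
Klk1b5: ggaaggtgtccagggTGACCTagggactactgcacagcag
Klk1: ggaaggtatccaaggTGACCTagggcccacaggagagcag

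TGACCT stood here in Klk1b27, Klk1b21, Klk1b22, Klk1b24, Klk1b5 and Klk1. Klk1b26 and Klk1b16 had TGACTT, Klk1b8 had TGACCC and Klk1b11 had TGAACT. The hexamer therefore did not split the members by cell class, since Klk1b16 and Klk1b26 share one form and differ in where they are found. Counted from the RefSeq start, it began at -109 in Klk1, -153 in Klk1b21, -176 in Klk1b27, -188 in Klk1b24 and -203 in Klk1b8. The RefSeq starts are not all those of GENCODE given above. The windows of Klk1b26 (from 44012428), Klk1b16 (from 44137040) and Klk1b5 (from 44216224) begin inside the GENCODE spans of these genes. The starts of Klk1b21 and Klk1b8 also differ between the annotations. Positions thus depend on the annotation.

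The whole windows of the members highest in Leydig cells (Klk1b21, Klk1b24 and Klk1b27) and of the member highest in elongating spermatid-like cells (Klk1b8) follow, at chr7:44102042-44102341 for Klk1b21, chr7:44187986-44188285 for Klk1b24, chr7:44052040-44052339 for Klk1b27 and chr7:43950416-43950715 for Klk1b8, all on the plus strand. Capitals mark every match, on either strand, to AGGTCA, to CAAGGTCA (which contains AGGTCA), to AGAACA and to TTTAAA.
Klk1b21: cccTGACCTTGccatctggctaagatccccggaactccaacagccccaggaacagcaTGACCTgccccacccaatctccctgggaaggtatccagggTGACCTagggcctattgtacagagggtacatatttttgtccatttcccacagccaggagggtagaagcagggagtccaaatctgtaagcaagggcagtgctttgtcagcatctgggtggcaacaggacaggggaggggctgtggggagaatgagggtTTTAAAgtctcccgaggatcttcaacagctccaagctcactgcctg
Klk1b24: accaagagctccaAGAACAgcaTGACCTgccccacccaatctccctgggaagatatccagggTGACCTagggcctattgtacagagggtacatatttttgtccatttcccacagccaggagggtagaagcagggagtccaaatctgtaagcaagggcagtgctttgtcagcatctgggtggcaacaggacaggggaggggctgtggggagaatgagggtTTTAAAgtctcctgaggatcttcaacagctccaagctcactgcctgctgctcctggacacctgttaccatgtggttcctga
Klk1b27: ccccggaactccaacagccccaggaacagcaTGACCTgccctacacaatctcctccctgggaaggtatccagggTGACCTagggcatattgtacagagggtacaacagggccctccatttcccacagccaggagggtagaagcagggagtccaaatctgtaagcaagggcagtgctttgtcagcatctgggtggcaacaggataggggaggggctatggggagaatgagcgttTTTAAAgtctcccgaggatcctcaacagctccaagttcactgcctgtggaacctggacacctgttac
Klk1b8: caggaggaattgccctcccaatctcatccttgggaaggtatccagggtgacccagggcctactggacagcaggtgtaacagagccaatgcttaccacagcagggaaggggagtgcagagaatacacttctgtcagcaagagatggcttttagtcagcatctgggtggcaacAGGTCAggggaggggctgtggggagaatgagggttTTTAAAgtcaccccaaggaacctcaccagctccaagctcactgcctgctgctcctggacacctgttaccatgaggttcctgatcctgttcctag

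The promoter windows of Klk1b21 and Klk1b24 were 97.7% identical over 265 aligned bases, and those of Klk1b21 and Klk1b27 were 94.5% identical over 274. Klk1b8 was 85.8% identical to Klk1b21 over 240 bases. Klk1b16 and Klk1b26 were 90.9% identical over 287 bases. AGGTCA was found in 7 of the 10 members' windows, against 16.3% of 32851 promoter windows in the RefSeq table. CAAGGTCA, the binding motif of steroidogenic factor 1, was found in 2 members (Klk1b21 and Klk1) and in 1.56% of all windows. In these 2 the hexamer shown above began at -153 and -109, against -176 to -203 in the other members. The other windows reach less far before the hexamer and do not cover the place of this motif, so they cannot show whether it is there. AGAACA, a half-site of steroid hormone receptors, was found in 1 member (Klk1b24) and in 19.0% of all. TTTAAA was found in 9 members, all but Klk1, and in 13.2% of all windows. The Klk1 window ends just before the place of TTTAAA in the other members, so it cannot show whether Klk1 has it. TATAAA and the cyclic AMP element half-site TGACG were found in 0 members, against 13.6% and 20.8% of all windows. Each motif was searched on both strands. The copies share their origin, so these are not independent matches, and a match is not a measured binding site.

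The Leydig cells held 8277433 counts at 2 months and 3083153 counts at 24 months, with a median of 6999.5 and 4807 counts per cell. All 10 Leydig markers outside the selection rule were found in both libraries, at a summed 18013 and 15075 CPM (counts in each 1000000 counts of the same cells). Close to the 1% cut lay 8 young and 23 aged cells, 3 and 16 of them inside. There the summed members were at 719 CPM just inside and 1783 CPM just outside in the young library, and at 369 and 170 CPM in the aged library. The tables share 35 cell labels, of which 0 are Leydig cells in both. Macrophage markers, 9 of 9 with a count in each library, summed to 553 CPM at 2 months and 1216 CPM at 24 months and were found in 16.3% and 14.99% of Leydig cells. They gather in an unnamed cluster with both marker lists, which holds 46 young and 54 aged Leydig cells. The summed members were at 3884 CPM in the 46 and at 390 CPM in the 54.

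In young Leydig cells 5 members stood above the others, and they are the run of neighbours from Klk1b27 to Klk1b24. Klk1b21 was the most abundant, at 1399 CPM (1374 to 1425), and had a count in 93.4% of cells. Klk1b27 was at 992 CPM (970 to 1013) and Klk1b24 at 951 CPM (930 to 972), and their intervals overlap. Klk1b22, in the submandibular gland an epidermal growth factor-binding protein, was at 276 CPM (265 to 287), and Klk1b16, known there as gamma-renin, at 186 CPM (177 to 195). These 5 held 31481 of the 32183 counts of all members. Per kilobase of transcript the order was Klk1b21 (1607 CPM per kb), Klk1b27 (1115), Klk1b24 (1083), Klk1b22 (323) and Klk1b16 (134), and the next was Klk1b8 at 42.8.

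The remaining members were low in young Leydig cells. Klk1b8 was at 36.7 CPM (32.7 to 41.1), Klk1b26, described as a prorenin-converting enzyme, at 19.8 CPM (16.9 to 23.1) and Klk1 at 19.6 CPM (16.7 to 22.8). The intervals of Klk1b26 and Klk1 overlap. Klk1b5 was at 6.77 CPM (5.11 to 8.79), and Klk1b11 at 1.93 CPM (1.10 to 3.14) on 16 counts, each in a different cell.

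The aged Leydig cells had lower values for 9 of the 10 members. Klk1b21 was at 136 CPM (124 to 150), 10.3-fold lower (9.32 to 11.4) than in the young library. Klk1b24 was at 132 CPM (120 to 146), 7.18-fold lower (6.502 to 7.95), and its interval overlaps that of Klk1b21. Klk1b27 was at 76.5 CPM (67.1 to 87.0), 12.96-fold lower (11.4 to 14.8). Klk1b22 was at 15.9 CPM (11.8 to 21.01), 17.4-fold lower (13.1 to 23.5), and Klk1b16 at 39.2 CPM (32.6 to 46.9), 4.74-fold lower (3.94 to 5.75). By these counting intervals the 5 neighbours did not differ by 1 common factor. The interval of Klk1b22 lies above that of Klk1b21, and that of Klk1b16 lies below all of the other 4. Klk1b16 did not keep this place in 1 random draw of 2000 counts from each cell (thinning). Its mean was then 0.376 counts per young and 0.0591 per aged cell, a ratio of 0.157. Klk1b24 had means of 1.895 and 0.296, a difference of nearly the same size. These drawn values are given without an interval. Under 14 of 16 alternative settings the Klk1b16 ratio stayed within its counting interval. As the mean of each cell's CPM it was 0.194. The place of Klk1b22 depends on the measure: as the mean of each cell's CPM its ratio of aged to young was 0.0804, near the 0.0938 of Klk1b21, and in the cluster with most aged Leydig cells, which has 9 young cells, it was 0.213 against 0.136.

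The low members showed the same direction on few counts. Klk1b8 was at 4.54 CPM (2.48 to 7.62) in aged Leydig cells on 14 counts, 8.09-fold lower (4.75 to 14.97). Klk1b26 was at 2.59 CPM (1.12 to 5.11) on 8 counts and Klk1b5 at 0.649 CPM (0.0786 to 2.34) on 2 counts. Klk1b11 had 1 count, and the interval of its ratio (0.00400 to 1.08) reaches past 1. Summed over the 10 members the level was 3888 CPM (3846 to 3931) at 2 months and 457 CPM (434 to 482) at 24 months, 8.50-fold lower (8.06 to 8.97).

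**Figure D1:**
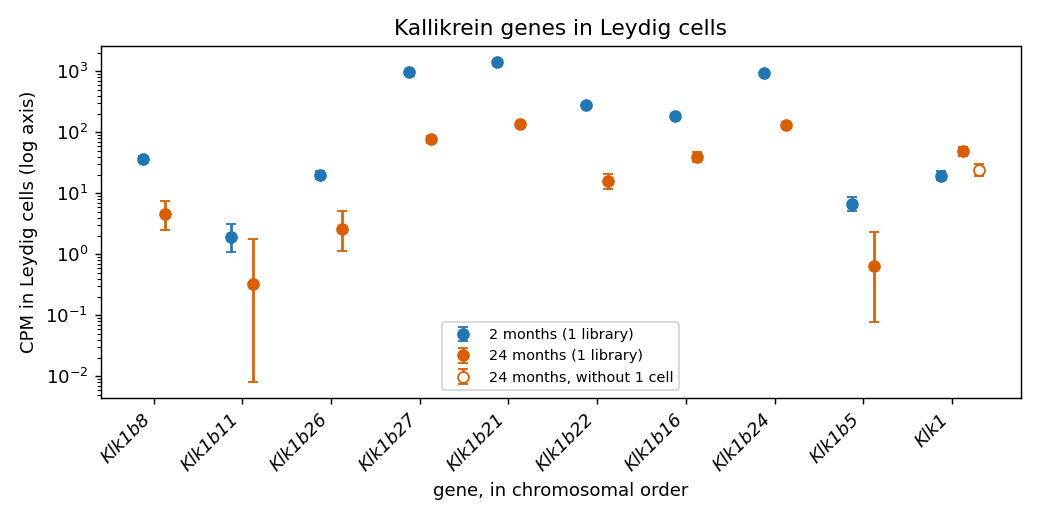
Level of each kallikrein gene in Leydig cells (CPM, log axis), in chromosomal order, for the library of each age, with 95% intervals for counting error. The 5 neighbours from Klk1b27 to Klk1b24 are highest at 2 months, while at 24 months Klk1 lies above Klk1b16 and Klk1b22, and the open point gives Klk1 in the aged library without 1 cell (24.4 CPM).

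Of 11375 genes with at least 50 counts over both libraries in Leydig cells, 823 (7.24%) were at least 1.5-fold lower and 850 (7.47%) at least 1.5-fold higher in the aged library. Of the members 9 of 10 had that many counts, and 8 were lower and 1, Klk1, was higher by that size, with a median log2 ratio of -2.97 against -0.0078 over all genes. The members were listed for this contrast, so the count is not evidence about them. In the ranking from the lowest ratio Klk1b22 was number 2, Klk1b27 number 3, Klk1b21 number 5, Klk1b24 number 14 and Klk1b16 number 21 of 11375.

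Klk1, which forms kinins, was the exception in its summed level, which rested on few aged cells. It had 162 counts in 10.0% of young and 151 counts in 3.03% of aged Leydig cells. The level was 19.6 CPM at 2 months and 49.0 CPM (41.5 to 57.4) at 24 months, a ratio of 2.502 (1.99 to 3.14). In the aged library 1 cell of 4270 counts held 76 of the 151 Klk1 counts (50.3%), the next held 32 and 18, and the 5 highest cells held 90.7%. In the young library the highest cell held 7 counts and the 5 highest 15.4%. Without the highest cell of each library (a choice made with the data in view) Klk1 was at 18.7 CPM (15.9 to 21.9) and 24.4 CPM (19.2 to 30.5), a ratio of 1.30 (0.973 to 1.72) whose interval includes 1. The aged cells with 32 and 18 counts are still part of this value. The ratio without them was not computed and would be lower. The higher summed level thus describes these few cells and not the aged Leydig cells at large, of which 3.03% had a Klk1 count. After thinning to 2000 counts a cell, Klk1 was found in 3.197% of young (2.25% to 4.40%) and 2.43% of aged cells (1.34% to 4.05%), and these intervals overlap. The 3 aged cells lay in Leydig clusters, had 2.01%, 3.12% and 2.35% of their counts in the rule genes, and held 15, 21 and 4 counts of other members. Their macrophage marker level was 0.

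Depth differs between the libraries, so detection was compared after each cell was thinned to 2000 counts, which leaves out 0 young and 52 aged Leydig cells. At least 1 member then had a count in 91.5% of Leydig cells (89.7% to 93.0%) at 2 months and in 38.96% (34.9% to 43.1%) at 24 months. Unthinned, the shares were 97.8% and 53.9%. Klk1b21 had a count in 76.6% of cells at 2 months and 20.9% at 24 months, Klk1b24 in 73.0% and 21.9%, and Klk1b27 in 64.0% and 10.6%. All of these 3 together were found in 48.9% of young and 3.48% of aged cells. Klk1b22 was found in 30.7% and 2.61%, and Klk1b16 in 26.4% and 5.04%. The order of Klk1b22 and Klk1b16 is thus the reverse in the aged library, as it is in the levels.

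The unthinned share in cells that should lack the genes gives the background. In spermatocyte-like cells, at a median of 30661 and 16876 counts, any of the 5 neighbours had a count in 25.1% of cells at 2 months and 0.599% at 24 months, and after thinning in 1.66% and 0.0893%. The thinned shares of Leydig cells lie far above these. Klk1b8 had a count in 6.57% of thinned young and 0.696% of thinned aged Leydig cells, and Klk1b26 in 3.29% and 0.174%.

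A thinned young Leydig cell had counts of a median of 3 members (quartiles 2 and 4), and an aged one of 0 (0 and 1). At least 3 members were found in 62.0% of young and 6.61% of aged cells. Unthinned the medians were 4 and 1.

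**Figure D2:**
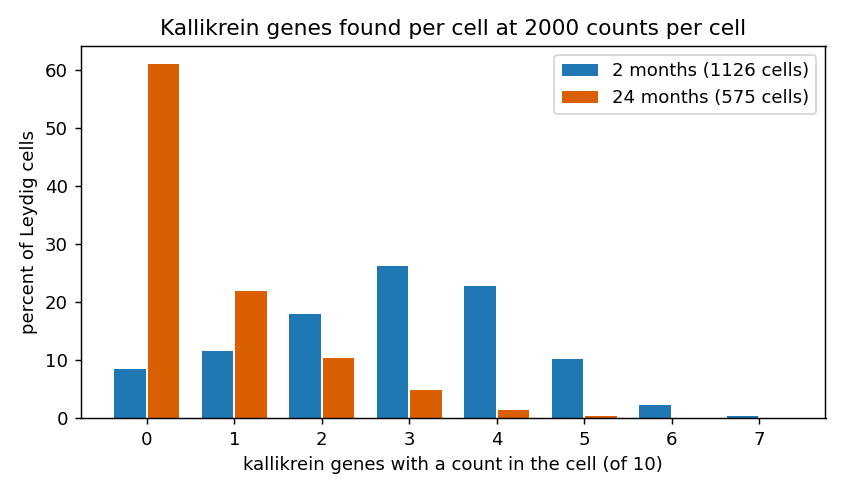
Share of Leydig cells (percent) by the number of the 10 kallikrein genes with a count, each cell thinned to 2000 counts, for 1126 young and 575 aged cells. Young cells centre on 3 genes, while 61.0% of aged cells have 0.

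Per cell, without thinning, the summed members ranged from 0 to 19280 CPM in the young library, with a median of 3101 CPM and quartiles of 1447 and 5470. In the aged library they ranged from 0 to 21311 CPM, with a median of 162 CPM and quartiles of 0 and 513. The highest aged cell is the one with 76 Klk1 counts. A count of 0 for all members was seen in 25 young cells (2.22%) and 289 aged cells (46.1%). The distributions overlap: 44 aged cells (7.02%, 5.14% to 9.31%) lay at or above the young lower quartile and 9 (1.44%) at or above the young median. At or above 295 CPM lay 94.9% of cells at 2 months and 37.0% at 24 months.

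**Figure D3:**
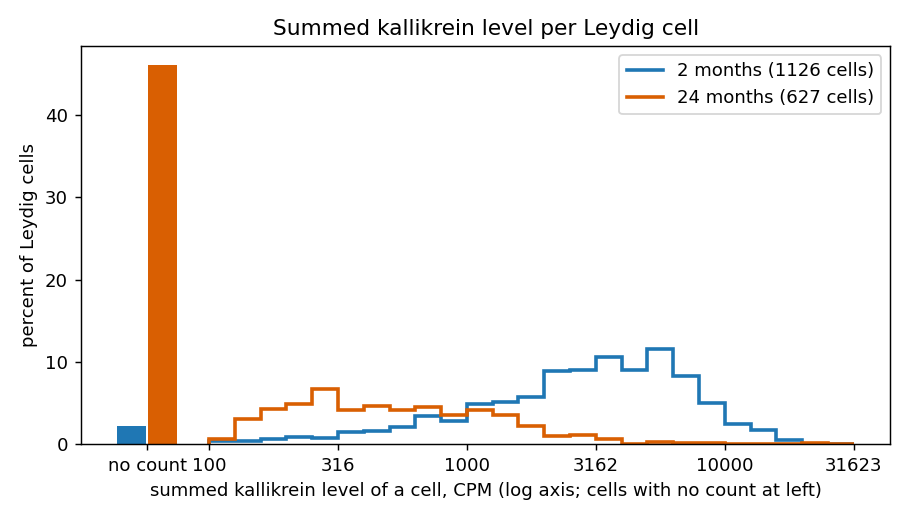
Summed level of the 10 kallikrein genes in each Leydig cell (CPM, log axis, with cells of no count as bars at the left) as a share of the library's Leydig cells. The young cells form 1 broad peak around 3101 CPM, and the aged cells spread below it, with 46.1% at no count.

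The 5 neighbours were found together more often than their single shares would give, in all 10 of their pairs in both libraries, while among the low members some pairs were found together less often or in 0 cells. In thinned young cells the share with both genes over the product of the single shares was 1.11 for Klk1b21 with Klk1b24, 1.15 for Klk1b21 with Klk1b27 and 1.16 for Klk1b24 with Klk1b27. The single shares are high there, which leaves little room above 1. In aged cells the same values were 1.75, 3.14 and 2.17. Klk1b21 and Klk1b27 were both found in 40 of 575 aged cells, where the product of their shares would give 2.21%, against 6.96% seen. Over cells the Pearson correlations of log-transformed thinned counts were 0.46, 0.50 and 0.45 in the young library. In the aged library they were 0.23, 0.41 and 0.25. Cells of a library share its depth and free RNA, so these describe the cells and carry no p. Klk1b8 was also found more often with Leydig members in young cells, at 1.79 for Klk1b16 (35 cells) and 1.67 for Klk1b22 (38 cells).

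In young Leydig cells the mix of members differed from cell to cell by more than counting alone gives. In 966 young cells with at least 5 counts of Klk1b21, Klk1b24 and Klk1b27 together, the share of Klk1b21 had a lower quartile of 33.3% and a median of 42.3%. Its variance over cells was 1.64 times the counting variance, that of Klk1b24 1.60 times and that of Klk1b27 1.88 times. In 73 aged cells the values were 1.36, 1.19 and 1.26. Aged cells hold fewer of these counts, which lowers the value for a given spread, so it does not compare the ages.

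Over all Leydig cells Klk1b21 held 35.99% of the members' counts at 2 months and 29.8% at 24 months. Of the counts of the 5 neighbours alone it held 36.8% (36.3% to 37.3%) and 34.0% (31.4% to 36.8%), and these intervals overlap. Of the counts of all 10 members Klk1b27 held 25.5% and 16.7% (14.8% to 18.8%), and Klk1b24 24.4% and 28.9% (26.6% to 31.4%). Klk1b16 held 4.78% and 8.58%, Klk1b22 7.09% and 3.48%, and Klk1, largely through the cells named above, 0.503% and 10.7%.

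The difference between the ages was seen at every strength of the Leydig rule. In cells with 1% to 2% of their counts in the rule genes the summed members were at 3080 CPM at 2 months and 310 CPM at 24 months. At 2% to 3% they were at 3035 and 412 CPM, at 3% to 4% at 3557 and 541 CPM, at 4% to 5% at 4368 and 459 CPM, and above 5% at 4404 and 477 CPM. The ratios in these bins lay between 0.101 and 0.152. The Leydig cells of the 2 ages lay mostly in different clusters, which were made without any Klk gene. Cluster 0 held 1071 young cells at 3901 CPM and 143 aged cells at 638 CPM (ratio 0.164), and cluster 6 held 9 young cells at 2388 CPM and 426 aged cells at 423 CPM (0.177). Within each the sum of the members was lower in the aged library, by less than over all Leydig cells. Klk1 went the other way in cluster 0, at a ratio of 7.30. The aged cell with 76 of the 151 aged Klk1 counts lay in a Leydig cluster. The ratio within a cluster without that cell was not computed. The summed members include Klk1. Of the 5 neighbours Klk1b16 was nearest to equality, at a ratio of 0.456 in cluster 6, where the young library has 9 cells.

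Outside Leydig cells most members fell into 2 sets, while Klk1, Klk1b5 and Klk1b11 were in neither. In young elongating spermatid-like cells Klk1 was at 0.692 (0.484 to 0.970) and Klk1b5 at 1.36 times (0.845 to 2.16) the Leydig level. In aged ones they were at 0.213 (0.138 to 0.318) and 8.87 times (2.08 to 79.5). The aged Leydig level of Klk1b5 rests on 2 counts, and that of Klk1 largely on the few cells named above. The 5 neighbours were low in spermatocyte-like and spermatid-like cells. At 2 months their sum was at 0.242% of the Leydig level in spermatocyte-like cells, at 0.387% in round and at 0.485% in elongating spermatid-like cells. Cyp17a1, the hydroxylase and lyase of androgen synthesis, was at 0.325%, 0.507% and 0.439% there, and Cyp11a1, which cuts the cholesterol side chain, at 0.308%, 0.433% and 0.457%. In the aged library the sum was at 0.0942%, 0.286% and 0.898%, with Cyp17a1 at 0.105%, 0.206% and 0.134%. In aged elongating spermatid-like cells the sum was thus at a higher share than Cyp17a1 and than Cyp11a1 (0.0854%). All 10 of these counts were of Klk1b16, which was there at 9.16% of its Leydig level, against 1.65% at 2 months, and whose closest copy is Klk1b26 (91.9% identical). Klk1b21, Klk1b22, Klk1b24 and Klk1b27 had 0 counts in those 368 cells, which allows a level of up to 1.08 CPM each.

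Klk1b8 and Klk1b26 were instead higher in elongating spermatid-like cells than in Leydig cells and in the other germ cell classes. These are the 162 young and 368 aged cells with protamine and transition protein transcripts. Klk1b8 was at 499.9 CPM (476 to 525) at 2 months and 422 CPM (399 to 447) at 24 months. That is 13.6 and 93.0 times its level in Leydig cells of the same library. Klk1b26 was at 106 CPM (94.6 to 117) and 108 CPM (96.0 to 121). Klk1b8 had a count in 99.4% of those cells at 2 months and 84.8% at 24 months, and in 67.3% and 61.8% after thinning. Spermatocyte-like cells had it at 1.63 and 0.553 CPM and round spermatid-like cells at 4.05 and 5.04 CPM. The clusters were made without Klk genes, so these levels did not shape the class.

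**Figure D4:**
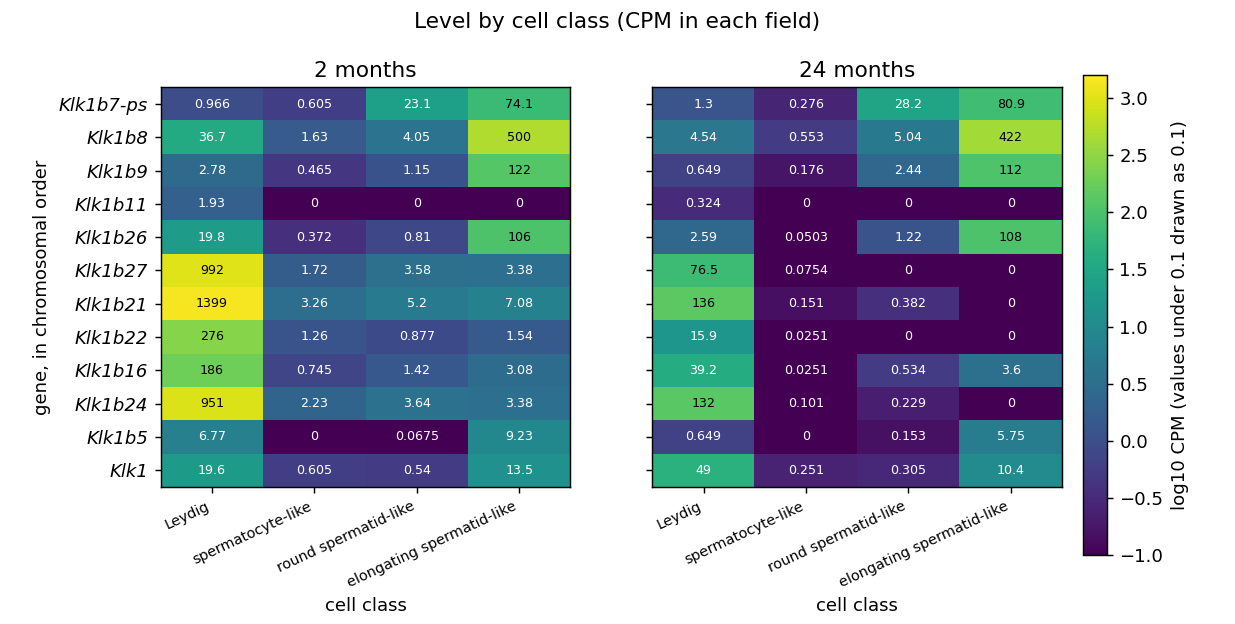
Level (CPM, printed in each field and coloured on a log10 scale) of the 10 kallikrein genes and of Klk1b9 and Klk1b7-ps in 4 cell classes, by library. The neighbours Klk1b27 to Klk1b24 are high in Leydig cells, and Klk1b8, Klk1b26, Klk1b9 and Klk1b7-ps in elongating spermatid-like cells at both ages.

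The elongating spermatid-like class consists of 2 clusters, and the spermatid members were higher in the one with more protamine RNA. In cluster 10, with Prm1 at 47147 CPM at 2 months and 49254 CPM at 24 months, Klk1b8 was at 702 CPM (664 to 741) and 695 CPM (649 to 743). In cluster 13, with Prm1 at 14531 and 14008 CPM, it was at 223 CPM (199 to 250) and 209 CPM (187 to 233). Within each cluster the Klk1b8 intervals of the 2 ages overlap. Klk1b26 was at 149 and 166 CPM in cluster 10 and at 45.9 and 62.2 CPM in cluster 13.

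The age ratios of these genes differed between the classes. Klk1b8 had a ratio of 0.124 (0.0668 to 0.211) in Leydig cells and of 0.845 (0.783 to 0.912) in elongating spermatid-like cells. Klk1b26 had a ratio of 0.131 (0.0556 to 0.264) in Leydig cells and of 1.02 (0.873 to 1.20) in elongating spermatid-like cells. The intervals of the classes do not overlap for either gene. The difference between the classes was not tested, since each age has 1 library. Klk1b5, at 9.23 and 5.75 CPM in elongating spermatid-like cells, had a ratio there of 0.623 (0.317 to 1.18), and Klk1, at 13.5 and 10.4 CPM, of 0.770 (0.465 to 1.26). Both intervals include 1. Klk1b11 had 0 counts in all cells outside the Leydig rule, which allows up to 0.0679 CPM at 2 months and 0.0492 CPM at 24 months.

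**Figure D5:**
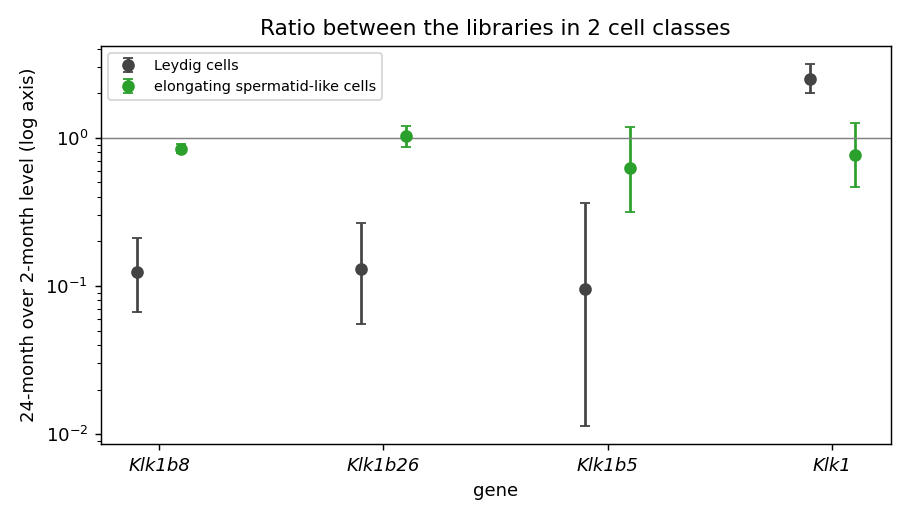
Ratio of the aged to the young level (log axis) of 4 kallikrein genes in Leydig cells and in elongating spermatid-like cells, with 95% intervals for counting error. For Klk1b8 and Klk1b26 the Leydig ratios are 0.124 and 0.131 and the spermatid ratios 0.845 and 1.02.

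Spermatid transcripts were also counted in Leydig cells. Prm1, Prm2, Tnp1 and Tnp2 together were in young Leydig cells at 0.867% of their elongating level and in aged Leydig cells at 0.577%. Klk1b9, in the same spermatid class at 122 and 112 CPM, was at 2.28% (1.43% to 3.47%) and 0.580% (0.0699% to 2.113%). Klk1b8 was at 7.35% (6.48% to 8.31%) in young Leydig cells, above both, and at 1.07% (0.586% to 1.81%) in aged ones. Klk1b26 was at 18.8% (15.5% to 22.7%) and 2.41% (1.03% to 4.802%). In young Leydig cells both genes were thus above the share that the protamines and Klk1b9 reached. In aged Leydig cells the interval of Klk1b8 begins at 0.586%, next to the protamine share of 0.577%, and that of Klk1b26 lies above it. The part of spermatid RNA in the Leydig values was not tested. Klk1b8 is also a near copy of Klk1b26, and Klk1b9 of Klk1b1 (93.3% identical). Klk1b26 is in turn 91.9% identical to Klk1b16, which was at 186 CPM in young Leydig cells. The part of reads assigned across copies was not tested.

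A Sertoli-like cluster of 24 young and 90 aged cells outside the rule showed the spermatid members and none of the Leydig run beyond 1 count of Klk1b27 per library. Klk1b8 was there at 580 CPM (499.7 to 669) and 352 CPM (282 to 434), and Klk1b26 at 154 and 101.2 CPM. The same cells carried the protamine and transition protein transcripts at 93.7% and 77.1% of their elongating spermatid-like level. The part of spermatid RNA in these values was not tested. In macrophage-like cells (127 young, 69 aged) the 5 neighbours summed to 11 and 6 counts, and in stromal fibroblast-like cells (17 and 130) to 4 and 9 counts. That is 16.3 and 39.4 CPM in the macrophage-like and 51.8 and 44.7 CPM in the stromal cells. In Leydig cells the same sum was at 3803 and 400 CPM. In the aged library these are larger shares of the Leydig level than in the spermatocyte-like and spermatid-like classes, on few counts. Cyp17a1 was at 50.5 and 118 CPM in macrophage-like cells.

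Other kallikreins were sparse in Leydig cells. Klk1b1 was at 7.85 and 0.973 CPM and Klkb1, the plasma kallikrein gene on chromosome 8, at 9.91 and 5.84 CPM. These are the only 2 of the 18 listed genes with 50 counts or more. Both were at least 1.5-fold lower in the aged library, against 7.24% of all genes tested. Klk1b9 had 23 and 2 counts, Klk1b7-ps 8 and 4, Klk1b3 4 and 0, and Klk1b4 3 and 0. Klk11, Klk12 and Klk14 had 1 young count each, and Klk13 had 1 count in each library.

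The kinin system and the inhibitors of kallikreins did not share the direction of the members. Of 19 listed genes 8 had 50 counts, 2 of them at least 1.5-fold lower and 2 higher, with a median log2 ratio of 0.11. Over all genes tested 7.24% were lower and 7.47% higher by that size. Kng2, a kininogen gene and so a source of kinins, was at 0.483 CPM on 4 counts at 2 months and 49.6 CPM at 24 months, a ratio of 103 (39.3 to 382). Serpina3n, a serine protease inhibitor of the acute phase, was at 96.9 and 182 CPM. Serping1, which inhibits plasma kallikrein and the first complement proteases, was at 321 and 203 CPM, and Ace, which breaks down bradykinin, at 64.8 and 42.5 CPM. The abundant inhibitor genes Serpina3c (674 and 741 CPM) and Serpina5 (374 and 459 CPM) differed by less than 1.5-fold, as did the peptidase genes Mme (105 and 112 CPM) and Cpd (33.6 and 30.2 CPM). Of the bradykinin receptor genes, Bdkrb1 had 0 young counts and 1 aged count and Bdkrb2 had 5 and 2.

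Of 5 proposed substrates 2 had enough counts. Agt, which encodes angiotensinogen, was at 5881 and 9533 CPM (ratio 1.62, 1.60 to 1.64), and Ren1, the renin gene, at 25.01 and 25.6 CPM. Egf had 13 and 5 counts. Of 8 listed genes of Leydig function 0 were past 1.5-fold in either direction, with a median log2 ratio of -0.074. Over all genes 7.24% were lower and 7.47% higher by that size, so few would be past it in any 8 genes. Outside that list, the rule gene Cyp17a1 was at 10451 and 6446 CPM (ratio 0.617) and the Leydig marker Inha, an inhibin subunit gene, at 161 and 81.1 CPM. Cyp11a1 was at 3430 and 2525 CPM, Hsd17b3, which forms testosterone, at 1891 and 1573, Fdx1, the electron carrier of Cyp11a1, at 1305 and 1384, and Hsd3b1 at 1223 and 1460. The luteinizing hormone receptor gene Lhcgr was at 360.1 and 350.3 CPM, the steroidogenic factor gene Nr5a1 at 381 and 353, and the hormone gene Insl3 at 111 and 74.6.

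Among 4400 genes found in at least 20% of young Leydig cells, leaving out the kallikrein and rule genes, Lcn2, which encodes the iron-carrier binding lipocalin, was the gene whose level per cell was most like that of the summed members (Pearson r = 0.38 over 1126 cells). Apoc1 (0.34), Ces1d (0.30), Agt (0.28) and Gstm1 (0.28) followed. The most unlike were the matrix gene Dcn (-0.29), Aebp1 (-0.24), Cst3 (-0.24), Cd63 (-0.23) and Tm7sf2 (-0.19). In aged Leydig cells Lcn2 was again first of 3197 genes (0.34 over 627 cells), followed by Aqp2 (0.25), Fabp3 (0.24), Rarres1 (0.20) and Apoc1 (0.19), and the most unlike were mt-Nd4 (-0.15), Gfpt1 (-0.14), mt-Cytb (-0.12), Ak1 (-0.12) and Nabp1 (-0.12). Of the rule genes, which were left out of the ranking, Ptgds had a correlation of 0.33 with the members in young cells and Cyp17a1 of 0.013. With the log of total counts the correlation was 0.11 in young and 0.15 in aged cells.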

How the data were processed

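Both deposited tables hold whole-number counts per cell and gene, 53413783 counts in 2771 young cells and 66390904 counts in 6823 aged cells. Per the labels' protocol the cells were captured on the BD Rhapsody system. Cell Ranger 2.11 and mm10 stand in the submitters' processing notes, while the header of the aged table names the BD WTA Multiplex Rhapsody Analysis Pipeline 1.7.1 and a STAR 2.5.2b index. The young table has no such header, and its lowest cell total is 3215 against 186 in the aged table, so the cell calling may differ. Whether counts are of molecules or of reads is not given in the sources used here.

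Cells were kept from 500 counts and 200 genes upward if mitochondrially encoded genes held no more than 25% of their counts, and doublets called by Scrublet (36 young, 123 aged) were removed. Cells were clustered on 2000 variable genes, 40 principal components and 15 neighbours with the Leiden method at resolution 1 (scanpy 1.11.5), leaving out all Klk genes. Clusters were named from marker lists, and a list needed at least 3 raised markers. Levels are CPM of counts summed over cells, with exact Poisson intervals for levels, exact binomial intervals for ratios and Clopper-Pearson intervals for shares, all at 95%. A count of 0 allows up to 3 counts. List ratios had 0.5 added to each count. The interval and thinning code was tested on simulated data. The members, gene lists and markers were chosen with earlier results of these data known. All 10 members are named, and of the other lists the genes at 10 CPM or more in either library, all other kallikreins with a count, and the 5 genes most and least like the members per cell. Some listed genes are not reported here. Promoters are from RefSeq (GRCm38.p6), transcripts and coordinates from GENCODE M21, both matched by gene name for 10 of 10 members. The annotated starts differ between them for some members. Alternatives changed the rule, the filters, the scaling, the thinning and the clusters.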

Additional observations from a re-analysis of the deposited data

Results flagged for a closer look

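Other kallikreins differed in opposite directions between the libraries in 2 cell classes, and the difference was not tested. Klk1b9 had an aged-to-young ratio of 0.233 in Leydig cells, on 23 and 2 counts, and of 2.13 in round spermatid-like cells, on 17 and 32 counts. The pseudogene Klk1b7-ps had a ratio of 1.22 in round spermatid-like cells and of 0.315 in the Sertoli-like cluster, on 25 and 6 counts.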

How the results depend on the processing

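No paired analysis was possible because each age has 1 library. The ratio of the summed members, 0.118, moved beyond its counting interval under 5 of 16 alternatives and stayed below 1 in all. It was 0.127 with the Leydig rule without Ptgds, 0.127 with cells thinned to 2000 counts and, among alternatives chosen after the data were seen, 0.164 and 0.177 within the Leydig cluster that holds most young or most aged cells and 0.110 without the highest Klk1 cell of each library. Klk1 ranged from 1.30 to 7.30, the lowest without those cells and the highest in the cluster with most young cells, and the other 9 members stayed between 0.0466 and 0.456. For the lowest Klk1 value only 1 cell per library was left out. The share of cells with any member was 97.8% and 53.9% unthinned, 84.4% and 25.9% at 1000 counts, and 97.2% and 52.3% at 4000 counts in the young and aged library, and 93.1% in the young library with the rule at 2%. The share with 3 or more members was 87.4% and 17.2% unthinned and 81.4% and 14.6% at 4000 counts. Outside the Leydig rule Klk1b21 held 7.46% and 1.55% of the members' counts. Median-of-ratios scaling shifted all genes by 0.023 (log2). With 1 library per age, the spread between animals is unknown, and few counts limit Klk1b5, Klk1b8, Klk1b11 and Klk1b26 in aged Leydig cells.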

Other observations

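Further kallikrein transcripts were found in elongating spermatid-like cells of both libraries. The pseudogene Klk1b7-ps was at 74.1 CPM at 2 months and 80.9 CPM at 24 months, Klk2-ps at 28.0 and 22.3 CPM, and Klk1b3 at 15.4 and 15.5 CPM. Klk1b7-ps was already at 23.1 and 28.2 CPM in round spermatid-like cells, where Klk1b9 was at 1.15 and 2.44 CPM. These genes were looked up after the values of Klk1b8 were seen.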
